A study of Mus musculus with 8 samples.

Results

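Clade B serpins are the branch of the serpin family of protease inhibitors whose proteins stay inside the cell. Most serpins present a flexible loop as bait, and a protease that cuts the loop is trapped on it, so that inhibitor and enzyme are both used up. In mice the clade B genes form a cluster on chromosome 13 and another on chromosome 1, and the chromosome 13 cluster has been expanded into many near copies. In cytotoxic lymphocytes and their targets these proteins are known for protection against granzymes, and in epithelial and myeloid cells against other serine and cysteine proteases.

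The 8 genes described here are Serpinb9b, Serpinb9, Serpinb6a, Serpinb6b, Serpinb1a, Serpinb8, Serpinb5 and Serpinb2, among 22180 genes measured. The group was chosen by the fall of Serpinb9b between the genotypes, and the other 7 members are its relatives. The fold changes of the members are therefore given as descriptions, without a p-value. Each gene is read from probe sets whose annotation names that gene alone. This gave 9 probe sets for the 8 genes, with 2 for Serpinb9b and 1 for every other member. Where a gene has more than 1, its value is that of the brightest, by the mean of the 8 arrays. Another 2 probe sets that list a member together with a second gene were not used.

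The cells are AML12, an established line of mouse hepatocytes, grown with serum, insulin, transferrin, selenium and dexamethasone, a synthetic glucocorticoid. In 1 group the VWA8 gene, which encodes a mitochondrial ATPase, was deleted with CRISPR/Cas9 (VWA8-null, here called knockout), and the other group was wild type. RNA of 4 separate differentiated cultures per genotype was hybridised to Affymetrix Mouse 2.0 arrays, and each value is the authors' log2 signal for a probe set on an array. No label states the number of knockout clones, and an effect of the deletion and a difference between clones cannot be told apart. The p-values measure the spread between these cultures.

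The deleted gene was low in every knockout culture. Vwa8 read 8.95, 9.01, 8.91 and 8.95 in wild-type replicates 1 to 4 and 5.12, 5.22, 5.07 and 5.33 in the knockout. Array medians ran from 4.27 to 4.33, values correlated with r of 0.985 to 0.989 within a genotype and of 0.978 to 0.984 across genotypes, and no pair of arrays was identical. Wild-type replicate 3 stood furthest from the rest on the second principal component, which held 14.5% of the variance, and the members' values without it are covered among the alternatives in the closing section. All 10 measured hepatocyte markers were above the array median, and all 10 passed limma as higher in the knockout (adjusted p under 0.05). Alb stood at 12.84 in wild type and 13.07 in the knockout on the log2 scale. Over all 22180 genes 20.9% passed, 10.4% of genes higher. The counts of markers were not set against genes of like signal. The 12 markers of cytotoxic lymphocytes, cells known to make Serpinb9, averaged 3.39 to 3.46 per wild-type array and 3.35 to 3.53 per knockout array, and none passed limma at an adjusted p under 0.05, with 1 at an unadjusted p under 0.05. Of 12 macrophage markers only Cd14 fell, and of 11 markers of stratified epithelium only Ivl fell. The array averages of wild type and knockout were 4.18 to 4.28 and 4.17 to 4.24 for macrophages, and 3.96 to 4.07 and 3.89 to 4.02 for epithelium. Of 7 cholangiocyte markers Cftr and Krt7 fell, with averages of 5.50 to 5.63 and 5.33 to 5.43. No marker of mast cells and neutrophils (12 measured), stellate cells and fibroblasts (10) or endothelium (10) passed, with 0, 1 and 0 at an unadjusted p under 0.05. No value on any array was at 0, and the part of these cells in the results was not tested. In RNA of whole cultures, fewer cells expressing a gene and less RNA per cell cannot be told apart.

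Serpinb9b, read from its brightest probe set, had the largest fall of the 22180 genes, ahead of the deleted Vwa8. It encodes a mouse paralog of the granzyme B inhibitor Serpinb9 and is known as an inhibitor of granzyme M. Its brightest probe set, 17286375 (Entrez Gene 20706, chromosome 13), read 10.36, 10.11, 10.32 and 10.28 in wild-type replicates 1 to 4. In knockout replicates 1 to 4 it read 6.12, 6.56, 6.41 and 6.30. Every knockout array was thus more than 3 log2 units below every wild-type array, with a spread inside each genotype under 0.5. The means were 10.27 ± 0.110 (SD, n = 4) and 6.35 ± 0.188 (n = 4), a log2 fold change of -3.92 ± 0.102 (SE) or a 15.1-fold lower signal. The next falls in order were those of Vwa8 at -3.77 ± 0.070 and of Osmr at -2.72 ± 0.112.

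A second, much dimmer probe set of Serpinb9b pointed the same way with a smaller difference. Probe set 17547771 read 5.11, 4.32, 4.86 and 4.80 in wild-type cells and 3.60, 4.00, 3.40 and 3.70 in the knockout. Its groups did not overlap, and the closest pair was wild-type replicate 2 with knockout replicate 2. The log2 fold change there was -1.10 ± 0.208 (SE from the spread of 4 and 4 arrays), a 2.14-fold lower signal. With the mean of both probe sets in place of the brighter one the change of Serpinb9b was -2.51, and its place among the falls, with every gene averaged in this way, was rank 5, behind Vwa8 at -3.77. No file names the exons that either probe set covers, and whether probes also bind the near copies of the gene cannot be told from the files.

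Serpinb9 lies beside Serpinb9b in the measured gene order and was lower as well, by far less. It encodes the inhibitor with which cytotoxic cells protect themselves from their own granzyme B. Probe set 17286365 (Entrez Gene 20723) read 8.19, 8.11, 8.20 and 8.11 in wild-type cells and 7.33, 7.13, 7.58 and 7.37 in the knockout. The wild-type arrays lay within 0.1 of each other, and the highest knockout array was below all of them. The means were 8.15 ± 0.049 and 7.35 ± 0.184 (SD, n = 4 each), a log2 fold change of -0.80 ± 0.092 (SE), or a 1.74-fold lower signal. The fold changes of Serpinb9b and Serpinb9 differed by -3.12 ± 0.154 log2 units (SE of the within-array differences, 4 arrays per genotype).

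**Figure D1:**
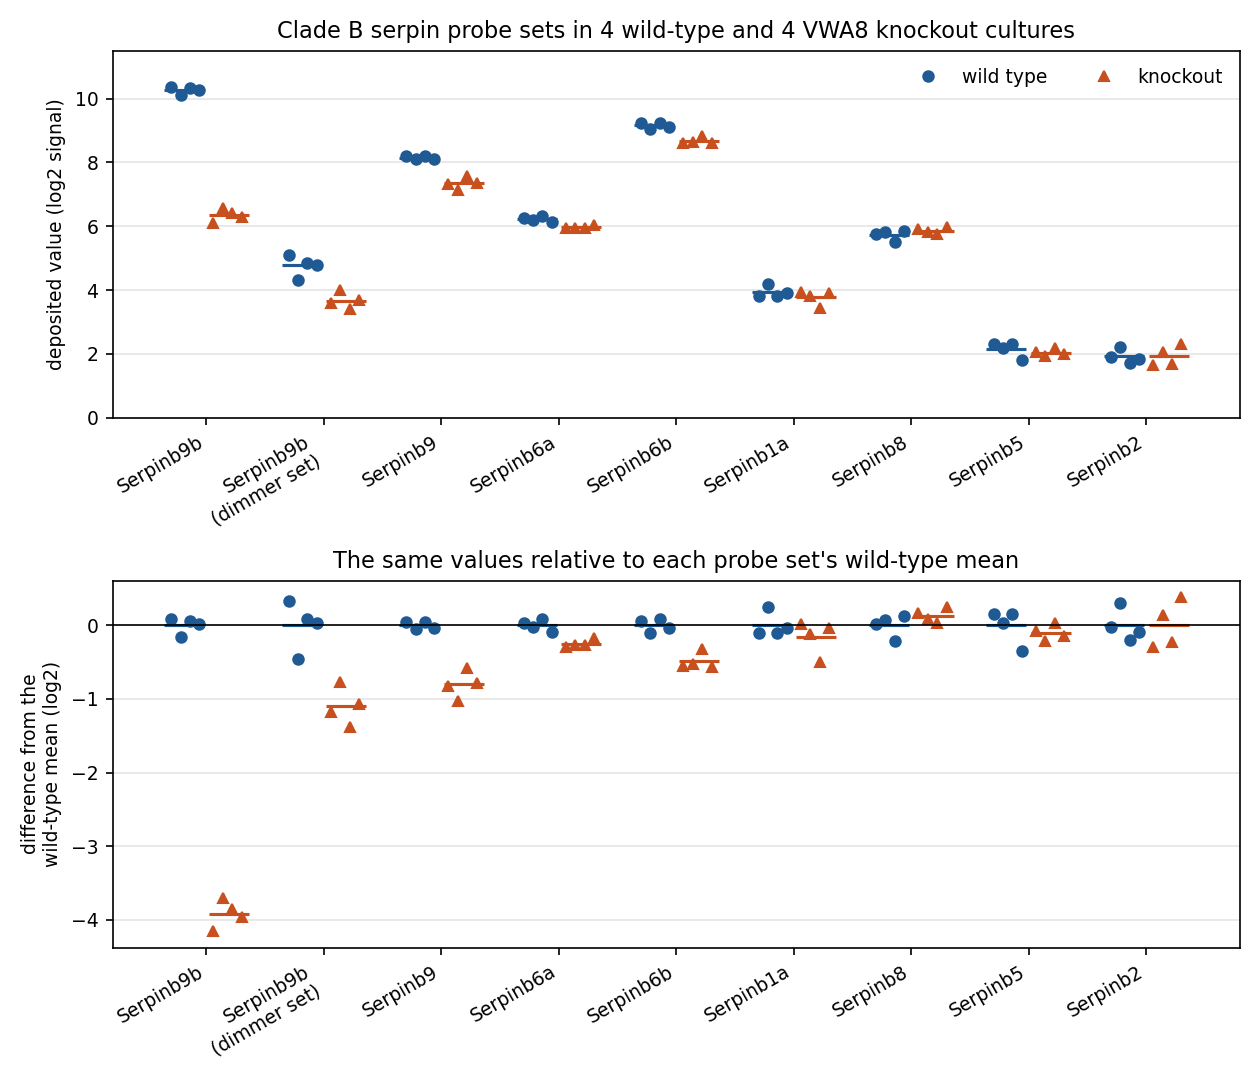
Values of the 9 probe sets of the 8 clade B serpins on 4 wild-type arrays (circles) and 4 knockout arrays (triangles), with horizontal lines at the group means. The upper panel gives the deposited log2 signal and the lower panel its difference from the wild-type mean of the same probe set. Both Serpinb9b probe sets, Serpinb9, Serpinb6a and Serpinb6b have all knockout arrays below all wild-type arrays, and the other 4 genes overlap. Levels of different probe sets cannot be compared with each other.

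Because Serpinb9b and Serpinb9 were both lower in the knockout, their promoters are shown from the RefSeq promoter table (GRCm38.p6), each running from 250 bases before the gene's start to 50 bases after it. Serpinb9b is at chr13:33027164-33027463 and Serpinb9 at chr13:33004291-33004590, both on the + strand. Capitals mark the 2 runs of at least 10 aligned bases that are identical in both.
Serpinb9b: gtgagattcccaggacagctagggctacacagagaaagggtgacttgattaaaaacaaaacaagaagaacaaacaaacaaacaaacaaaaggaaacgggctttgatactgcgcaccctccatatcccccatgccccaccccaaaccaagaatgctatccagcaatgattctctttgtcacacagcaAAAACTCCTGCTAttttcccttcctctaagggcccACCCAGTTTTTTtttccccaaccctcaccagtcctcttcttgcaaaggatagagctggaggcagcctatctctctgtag
Serpinb9: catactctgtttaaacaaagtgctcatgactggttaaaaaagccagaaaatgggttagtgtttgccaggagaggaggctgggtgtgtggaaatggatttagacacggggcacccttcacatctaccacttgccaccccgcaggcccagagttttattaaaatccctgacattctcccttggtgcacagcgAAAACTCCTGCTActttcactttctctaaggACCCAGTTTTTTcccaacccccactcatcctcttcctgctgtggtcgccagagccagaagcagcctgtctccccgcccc
The runs are 13 and 12 bases long, and the second lies at positions -29 to -18 from the start of both genes. Over the aligned bases the pair was 67.3% identical. Between the other 20 pairs of member promoters, aligned the same way, the identity ran from 49.3% to 63.7%.

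Serpinb6b and Serpinb6a, relatives of the human cathepsin G inhibitor SERPINB6, were lower by smaller steps. Serpinb6b is known as an inhibitor of mouse granzyme A. Probe set 17286354 of Serpinb6b (Entrez Gene 20708) read 9.23, 9.05, 9.24 and 9.13 in wild-type cells and 8.61, 8.64, 8.84 and 8.60 in the knockout. The groups were separate, with knockout replicate 3 apart from its 3 fellows and nearest to the wild type. The log2 fold change was -0.49 ± 0.076 (SE), or a 1.40-fold lower signal. Probe set 17291746 of Serpinb6a (Entrez Gene 20719) read 6.26, 6.20, 6.31 and 6.13 in wild-type cells and 5.93, 5.95, 5.95 and 6.05 in the knockout. These groups came closest to each other, at wild-type replicate 4 and knockout replicate 4. The log2 fold change of Serpinb6a was -0.25 ± 0.062 (SE), or a 1.19-fold lower signal. The fold changes of Serpinb9 and Serpinb6b differed by -0.31 ± 0.067, and those of Serpinb6b and Serpinb6a by -0.24 ± 0.076.

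Of the 8 members, 4 were past the adjusted p of 0.05 in limma and all 4 were lower in the knockout. Over all 22180 genes 20.9% passed, 10.4% of genes lower and 10.4% higher. The same 4 members had all knockout arrays below all wild-type arrays, which held for 13.2% of all genes. Since the fall of Serpinb9b chose the group, nothing is read from these counts. The smallest change among the members past the threshold was that of Serpinb6a, and the largest among those outside it was that of Serpinb1a at -0.16. The median log2 fold change was -0.21 over the 8 members and -0.003 over all genes. The 4 genes past the threshold are all on chromosome 13, as is 1 of the 4 that did not pass.

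Serpinb1a, Serpinb8, Serpinb5 and Serpinb2 had overlapping groups. Serpinb1a, an inhibitor of neutrophil elastase, cathepsin G and proteinase 3, ran from 3.82 to 4.18 in wild-type cells and from 3.43 to 3.95 in the knockout, a log2 fold change of -0.16 ± 0.129 (SE). Its probe set was below the array median in both groups. Serpinb8, known as an inhibitor of furin, ran from 5.52 to 5.86 and from 5.76 to 5.98, at 0.13 ± 0.088. It was the only member with a higher mean in the knockout, and its sign turned to -0.11 when the median change of neighbouring genes on chromosome 1 was subtracted.

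The last pair of members were the dimmest. Serpinb5, or maspin, is a family member without known protease inhibition that is found in epithelia. It ran from 1.80 to 2.31 in wild-type cells and from 1.93 to 2.18 in the knockout, at -0.10 ± 0.118 (SE). Serpinb2, also called plasminogen activator inhibitor 2, ran from 1.73 to 2.23 and from 1.64 to 2.31, a log2 fold change of -0.001 ± 0.166. The median change of brighter neighbouring genes on chromosome 1 was 0.22 for both. With it subtracted, Serpinb5 stood at -0.32 and Serpinb2 at -0.22, short of the threshold. That shift was taken from brighter genes, and no fall is read from these values. Both members lay below the 25th percentile of every array (3.03 to 3.06), where a dim signal and no expression cannot be told apart.

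Motifs of 4 kinds of transcription factor were searched on both strands of the promoters of 7 members, Serpinb1a having no entry. In none of the promoters of Serpinb9b, Serpinb9 and Serpinb6b were the letters found of AP-1 (TGANTCA, in 7.81% of the 32851 promoters of the table), STAT (TTCNNNGAA, 8.3%), TEAD (GGAATG, 14.7%) or part of an NF-kB site (GGGANTTTC, 1.11%). Serpinb6a, which was lower, and Serpinb8, which was not, are shown as the members with 2 matches of 1 kind. The promoter of Serpinb6a (chr13:34002745-34003044, - strand) held 2 STAT matches and 1 TEAD match, and that of Serpinb8 (chr1:107589756-107590055, + strand) held 2 AP-1 matches, all in capitals.
Serpinb6a: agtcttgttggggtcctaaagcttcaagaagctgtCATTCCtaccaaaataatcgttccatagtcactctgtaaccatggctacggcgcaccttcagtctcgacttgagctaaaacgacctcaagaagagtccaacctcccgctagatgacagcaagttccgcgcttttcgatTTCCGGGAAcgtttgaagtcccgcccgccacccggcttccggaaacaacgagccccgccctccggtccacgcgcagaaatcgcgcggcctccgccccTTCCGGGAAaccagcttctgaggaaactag
Serpinb8: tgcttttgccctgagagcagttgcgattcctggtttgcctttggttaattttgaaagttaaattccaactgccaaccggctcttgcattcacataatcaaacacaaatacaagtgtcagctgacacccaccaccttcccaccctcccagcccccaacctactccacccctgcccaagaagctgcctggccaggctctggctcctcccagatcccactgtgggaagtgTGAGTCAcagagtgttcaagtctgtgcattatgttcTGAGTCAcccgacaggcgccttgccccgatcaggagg
The STAT matches of Serpinb6a lie at -77 to -69 and 21 to 29 from its start and its TEAD match at -215 to -210, while the second listed start of the gene had no match. The AP-1 matches of Serpinb8 lie at -23 to -17 and at 14 to 20. Serpinb5 held 1 AP-1 match, and Serpinb2 held 1 AP-1 and 1 STAT match at both of its listed starts. A match is a run of letters in this window and not a measured binding site.

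The other measured clade B genes were dim, and 1 of them passed the test. Of 20 further clade B genes listed, 17 were measured, all below the array median. In limma 1 fell, none rose, and 16 did not pass, against 20.9% of all genes passing, and the median log2 fold change was 0.02. At an unadjusted p under 0.05, 4 of the 17 passed and all 4 were lower. The gene that fell was Serpinb9c, a further near copy of Serpinb9, at -0.39 ± 0.117 (SE, adjusted p = 0.0469 in limma) from a wild-type mean of 2.73 (SD 0.195, n = 4). Its call was lost in 8 of the 15 alternatives that kept the gene. Among those that did not pass, Serpinb1b stood at -0.58 ± 0.219 and Serpinb9f at -0.47 ± 0.176, and these were named after their values were seen.

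On chromosome 13, Serpinb6b, Serpinb9 and Serpinb9b stood side by side among the measured genes. From Serpinb1a to Serpinb9c, 7 measured clade B genes in a row had a negative log2 fold change, and Serpinb6b, Serpinb9, Serpinb9b and Serpinb9c were the 4 of them past the threshold. This run was picked from the values as the longest and holds Serpinb9b, so nothing is read from its length. Serpinb9d at 0.16 ± 0.146 (SE) and Serpinb9e at 0.11 ± 0.227 come next in order. Serpinb6a, the remaining lower member, lies at the far end of the cluster. The 10 measured genes next to the cluster, 5 on each side, were not lower as a group, with a median of 0.04. Bphl, a serine hydrolase, rose by 0.32 ± 0.062 (SE, adjusted p = 0.00540) and Tubb2b, a beta tubulin, stood at -1.23 ± 0.170 (adjusted p = 0.000948), or -0.73 with the mean of its probe sets, while Foxf2, Foxc1, Gmds, Mylk4, Wrnip1, Nqo2, Tubb2a and 4930447K03Rik did not pass. On the whole chromosome 17.1% of 858 genes passed, 53 higher and 94 lower, with a median of -0.03.

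**Figure D2:**
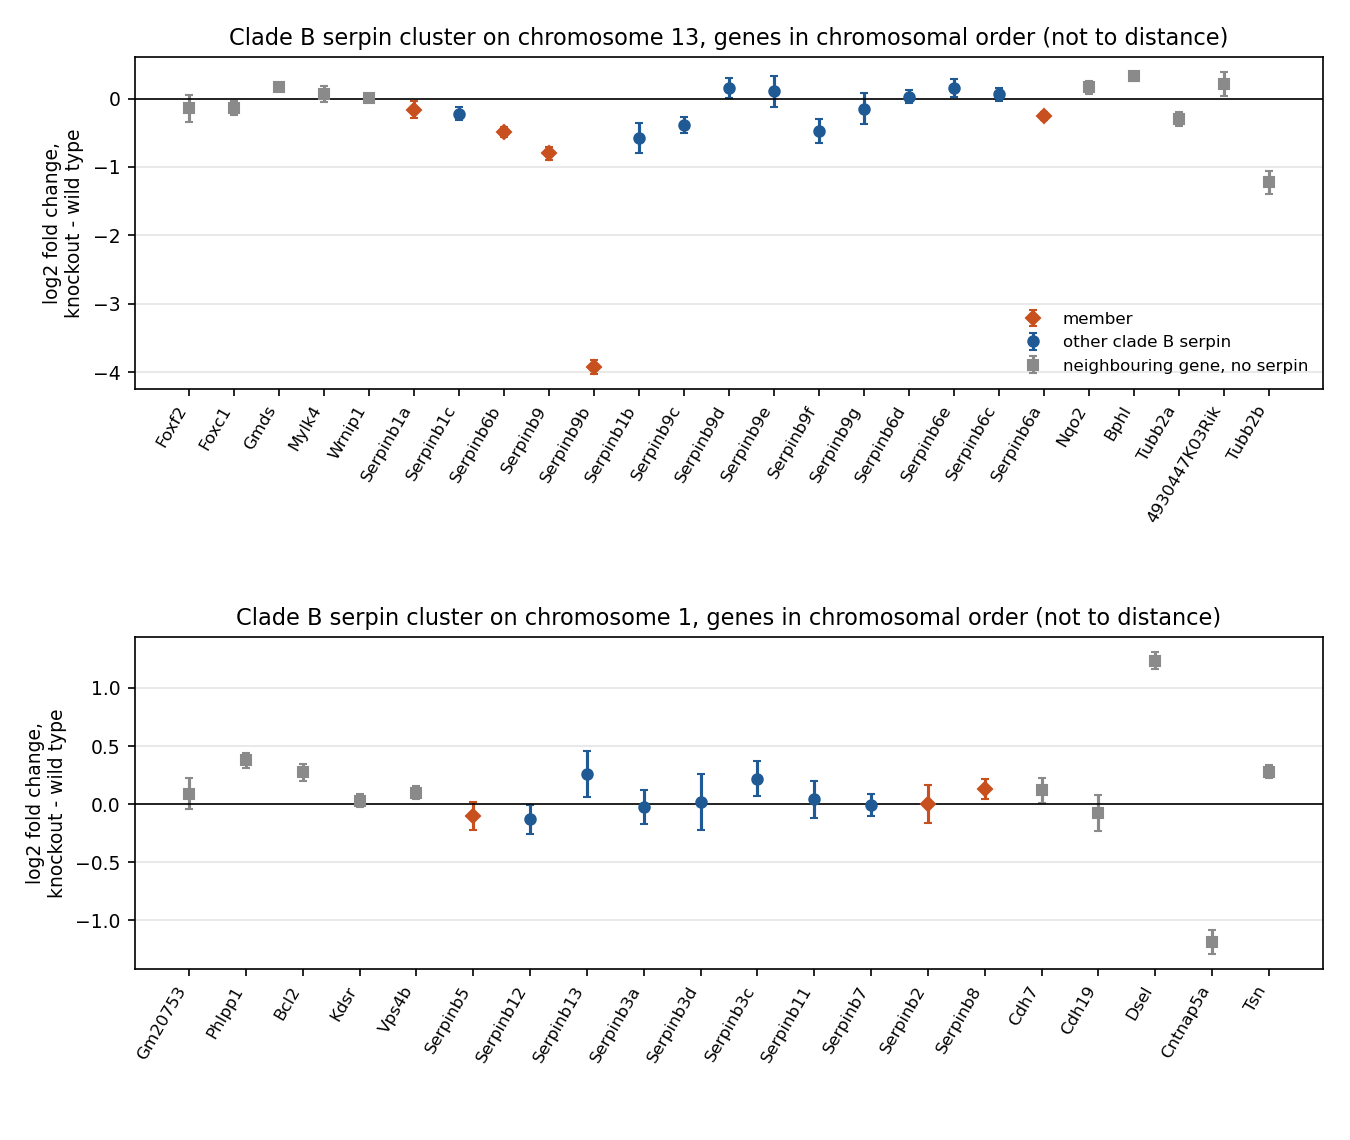
Log2 fold change (knockout minus wild type, bars are SE, 4 arrays per genotype) of the clade B serpins and of 5 measured genes on either side, in their order on chromosome 13 (upper panel) and chromosome 1 (lower panel). Serpinb9b at -3.92 is far below its neighbours Serpinb9 at -0.80 and Serpinb1b at -0.58. The panels have different vertical scales.

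On chromosome 1 no clade B serpin was past the threshold. Its 3 members did not pass, and of its 7 other measured clade B genes none passed in limma, with 0 at an unadjusted p under 0.05. The flanking genes went both ways. Of the 10 genes beside it, Phlpp1, a phosphatase of AKT, rose by 0.38 ± 0.062 (adjusted p = 0.00248), Bcl2, an inhibitor of apoptosis, by 0.27 ± 0.073 (adjusted p = 0.0271), Tsn by 0.28 ± 0.057 (adjusted p = 0.00793) and Dsel by 1.23 ± 0.071 (adjusted p = 6.82e-06). Cntnap5a fell, at -1.18 ± 0.105 (adjusted p = 7.16e-05), and Gm20753, Kdsr, Vps4b, Cdh7 and Cdh19 did not pass. On chromosome 1 as a whole 30.7% of 1229 genes passed, 288 higher and 89 lower, with a median of 0.06. After the median change of neighbouring genes was subtracted, Bcl2 stood at 0.06, Phlpp1 at 0.18 and Tsn at 0.06, and none of these passed. The call of Bcl2 was lost in 8 of 17 alternatives, with adjusted p from 0.00428 to 0.608.

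Proteases were counted over a broad list of serine and cysteine enzymes of the kinds that serpins inhibit. It also holds F2, F10, Plg and Ctsh, which were the 4 that rose. Of 41 measured 4 rose, 4 fell and 33 did not pass, with a median of -0.04 (19.5% passing against 20.9% of all genes). The granzymes were dim. None of the 9 measured passed in limma, with 1 at an unadjusted p under 0.05, and their log2 fold changes ran from -0.04 to 0.33. Gzmb, the target of Serpinb9, ran from 2.75 to 2.84 in wild-type cells and from 2.57 to 2.93 in the knockout. Gzmm, the target of Serpinb9b, ran from 3.59 to 4.54 and from 4.00 to 4.52. Both are named for their role and not for their values. Furin, the target of Serpinb8, was bright and ran from 10.56 to 10.59 and from 10.48 to 10.68, and did not pass.

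The plasminogen activators, which Serpinb2 is known to inhibit, were lower. Plat, the tissue plasminogen activator, fell to a mean of 6.21 from 7.32, a log2 fold change of -1.10 ± 0.095 (SE, adjusted p = 6.11e-05 in limma). Plau, the urokinase, fell from a mean of 5.77 ± 0.089 to 4.77 ± 0.258 (SD, n = 4 each, adjusted p = 0.000456 in limma), with no overlap between 5.69 to 5.89 in wild-type cells and 4.42 to 5.02 in the knockout. Their substrate plasminogen went the other way, with Plg higher by 1.11 ± 0.078 (adjusted p = 2.09e-05). Ctsh, a lysosomal aminopeptidase, rose by 0.91 ± 0.055 (adjusted p = 7.79e-06) and F10, coagulation factor X, by 0.93 ± 0.088 (adjusted p = 0.000110). The other proteases that fell were St14, or matriptase, at -0.66 ± 0.071, and Ctsl, or cathepsin L, at -0.25 ± 0.055, and F2, prothrombin, was the remaining riser at 0.58 ± 0.147. Plau, St14, Ctsl and F2 were named after their values were seen.

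Serpins of other clades, most of which leave the cell, rose more often than they fell. Of 29 measured genes of other clades 12 rose, 1 fell and 16 did not pass (44.8% against 20.9% of all genes), with a median of 0.20. Serpinf2, the inhibitor of plasmin, rose by 2.82 ± 0.076 (adjusted p = 2.59e-07), and Serpinc1, antithrombin, by 2.34 ± 0.079 (adjusted p = 4.98e-07). Serpind1, heparin cofactor II, rose by 2.07 ± 0.073 (adjusted p = 5.46e-07) and Serpina3n by 2.32 ± 0.213 (adjusted p = 8.97e-05). The gene that fell was Serpinh1, a collagen chaperone of the endoplasmic reticulum that is retained in the cell, at -0.66 ± 0.078 (adjusted p = 0.000387). Many of these genes are hepatocyte products, and the difference between the clades was not tested.

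Protease inhibitors outside the serpin family went both ways. Of 46 measured, 7 rose, 10 fell and 29 did not pass (37% passing against 20.9% of all genes), with a median of -0.02. The 4 with the smallest p all rose and are plasma proteins of liver: Pzp, an alpha-2-macroglobulin relative, by 1.83 ± 0.074, Itih2 by 1.36 ± 0.068, Itih3 by 1.73 ± 0.102 and Ahsg, fetuin-A, by 0.82 ± 0.067 (adjusted p no higher than 4.40e-05 in limma). Ambp, also a plasma protein of liver, fell instead, at -0.40 ± 0.059 (adjusted p = 0.00127 in limma). Ambp was named after its value was seen. Cstb, an intracellular cystatin that blocks cathepsins, was among the 10 that fell, at -0.52 ± 0.101 (adjusted p = 0.00625). Cstb was named after its value was seen, as a cytosolic inhibitor like the clade B serpins. Of the other intracellular inhibitors in the list, Csta2, Birc3 and Birc5 also fell. These were likewise picked out after their values were seen. Csta2 was dim, with means of 2.96 in wild type and 2.33 in the knockout. Its groups overlapped, and its adjusted p was 0.0479 in limma. Cast, Xiap, Birc2, Csta1, Csta3, Stfa1, Stfa2, Stfa3, Naip2, Naip5, Naip6 and Pebp1 did not pass.

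**Figure D3:**
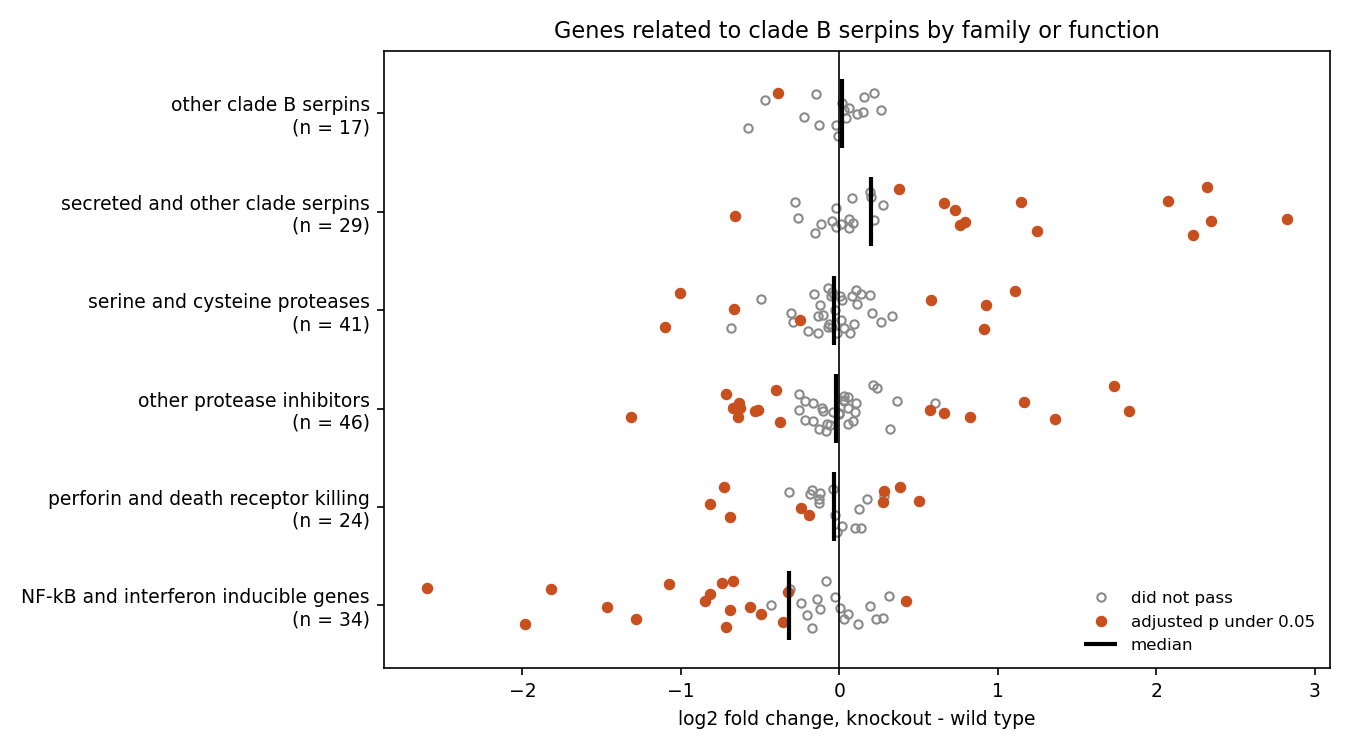
Log2 fold change (knockout minus wild type) of each measured gene in 6 lists related to clade B serpins, with filled points for an adjusted p under 0.05 in limma, open points for genes that did not pass and a vertical bar at the list's median. The vertical scatter of points has no meaning. The medians are 0.02 for other clade B serpins, 0.20 for serpins of other clades and -0.32 for NF-kB and interferon inducible genes.

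Genes of killing by perforin and by death receptors, a list wider than the granzyme B that Serpinb9 inhibits, changed in both directions. Of 24 measured, 4 rose, 5 fell and 15 did not pass (37.5% passing against 20.9% of all genes), with a median of -0.03. Only 2 of these 24 were below the array median, and the 37.5% was not set against genes of like signal. No excess of changed genes is read from it. Apaf1, the scaffold of the apoptosome, stood at -0.73 ± 0.078 (adjusted p = 0.000210), Tnfrsf10b, the TRAIL receptor, at -0.82 ± 0.088 (adjusted p = 0.000218) and Bid, a granzyme B substrate, at -0.69 ± 0.085 (adjusted p = 0.000487). Cflar, which blocks caspase-8, rose by 0.50 ± 0.062 (adjusted p = 0.000478), Casp6 by 0.38 ± 0.062, Aifm1 by 0.28 ± 0.061 and Bcl2 as given above. With the median shift of their brighter neighbours subtracted, Cflar stood at 0.14 and Casp6 at 0.18, both short of the threshold.

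In a list of genes that NF-kB or interferon switch on, falls outnumbered rises, and the genes with the smallest p belong to the NF-kB side. This list was included because Serpinb2 and Serpinb9 are known to respond to such signals. Of 34 measured, 16 fell, 1 rose and 17 did not pass (50% against 20.9% of all genes), with a median of -0.32. Of the 34, 7 were below the array median, and the 50% was not set against genes of like signal. Ccl2, a monocyte chemokine, stood at -2.60 ± 0.134 (adjusted p = 3.90e-06), Tnfaip3, an inhibitor of NF-kB signalling, at -1.46 ± 0.079 (adjusted p = 4.79e-06), Ccl7 at -1.99 ± 0.144 (adjusted p = 2.42e-05) and Nfkb2, a subunit of NF-kB, at -0.74 ± 0.054 (adjusted p = 2.47e-05). Vcam1 was the gene that rose, by 0.42 ± 0.059 (adjusted p = 0.000981). With the median shift of its brighter neighbours subtracted, the rise of Vcam1 was 0.20 (adjusted p = 0.0440 in limma). Of the genes known to respond to interferon Irf1, Stat2 and Cxcl10 fell, while Ifit1, Ifit2, Ifit3, Isg15, Oasl2, Usp18, Irf7, Irf9, Tap1, Psmb8, Psmb9 and Gbp3 did not pass and ran from -0.43 (Oasl2) to 0.31 (Psmb9). These were named after their values were seen. These values stand beside the lower Serpinb9 and beside the dim Serpinb2, which was at -0.001 ± 0.166 (SE). The relation of either gene to them was not tested.

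The 5 genes with the pattern most like that of Serpinb9b were chosen by correlation alone. Among 449 other genes with an absolute log2 fold change of at least 1, Pearson's r with Serpinb9b over the 8 arrays was highest for Diaph3, a formin, at 0.998, Tgfb3, a TGF-beta ligand, at 0.998, Plk1, a mitotic kinase, at 0.998, Top2a, a topoisomerase, at 0.998, and Mcm4, a helicase subunit, at 0.998. The arrays form 2 groups, so these values mostly measure how small the spread within a genotype was against the difference. After each genotype's mean was removed, r over the 8 arrays was 0.52 for Diaph3, 0.80 for Tgfb3, 0.62 for Plk1, 0.39 for Top2a and 0.60 for Mcm4. The log2 fold changes were -1.26 ± 0.050 for Diaph3, -1.19 ± 0.062 for Tgfb3, -2.23 ± 0.076 for Plk1, -2.02 ± 0.058 for Top2a and -1.08 ± 0.056 for Mcm4. Each was smaller than that of Serpinb9b.

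**Figure D4:**
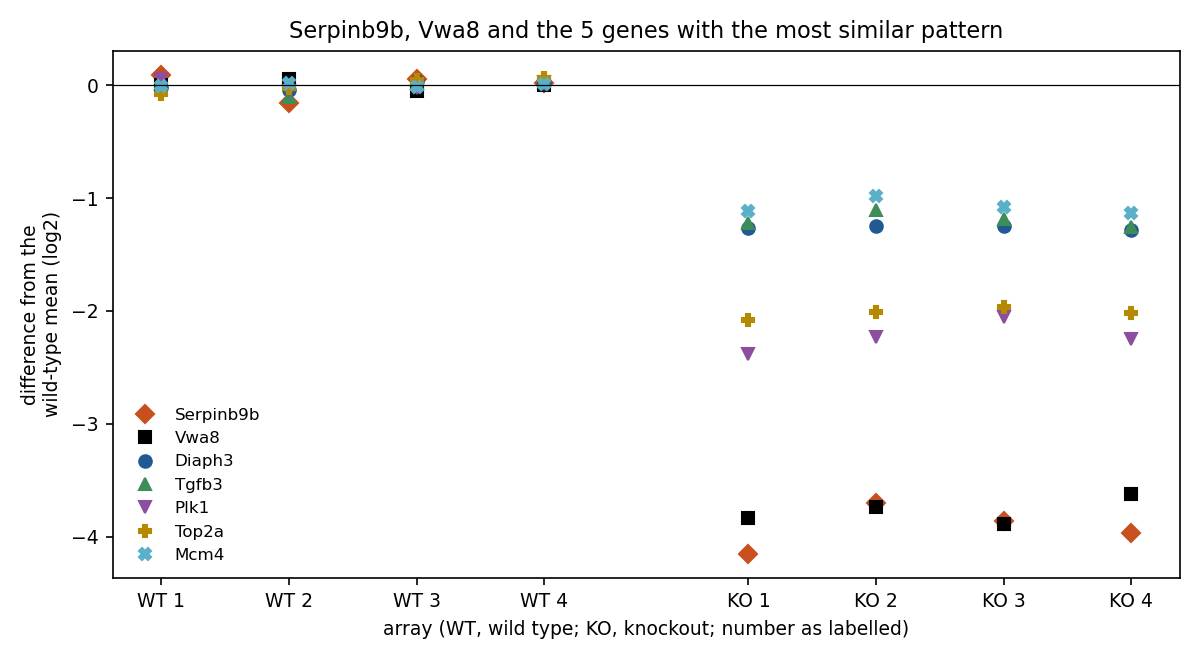
Difference from the wild-type mean (log2) of Serpinb9b, Vwa8 and the 5 genes with the highest correlation to Serpinb9b, on each of the 4 wild-type (WT) and 4 knockout (KO) arrays. On the knockout arrays Serpinb9b and Vwa8 are lowest, with means of -3.92 and -3.77, and the means of the other 5 genes run from -2.23 to -1.08.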

How the data were processed

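RNA from 4 wild-type and from 4 knockout cultures was labelled with biotin and hybridised to arrays, per the labels' protocols. The authors deposited a processed value for every probe set on every array. These deposited values, from 0.44 to 13.55, have the range of log2 signals and were taken as such. How the authors corrected, normalized and summarised them is not given in the sources, and no further normalization was applied. Without a background measure, a dim signal and no expression cannot be told apart, and folds from a dim baseline are compressed. The 4 arrays per group limit the precision.

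Of 41345 probe sets, 23521 had 1 gene symbol in the platform annotation, 1814 several and 16010 none. Each of the 22180 genes was represented by its single-symbol probe set with the highest mean over 8 arrays. Gene order came from a RefSeq table of GRCm38.p6, in which 21994 of the genes were found through their Entrez Gene identifier. The genotypes were set against each other with lmFit and eBayes in limma 3.58.1 (R 4.3.3), genotype the only term, with two-sided p-values adjusted by Benjamini-Hochberg over all genes and a threshold of 0.05. The fit was tested on simulated data. Promoters were aligned with Biopython 1.88, and figures drawn with matplotlib 3.10.9 (Python 3.11.15).

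The members, the gene lists, the tests and the alternatives were chosen with earlier results of these data known. Named genes were all members, every other clade B serpin past the threshold, up to 4 genes of each list with the smallest adjusted p, the members of a list going against its majority where 5 or fewer, the 5 nearest measured genes beside each cluster, the 5 genes most correlated with Serpinb9b and Vwa8. Alternatives were the replicate number as a block, median centring, quantile normalization, array weights, and robust variances with an intensity trend. A filter took out genes among the dimmest 25% or 50% of probe sets, which left 17613 and 12085 genes. Others averaged the probe sets of a gene or left out each array. The neighbour alternative subtracted the median change of the nearest 30 genes on each side whose mean signal was above the median of all genes.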

Additional observations from a re-analysis of the deposited data

Results flagged for a closer look

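Among 120 groups of 4 arrays (members and named genes in each genotype), 3 held an array whose gap to the nearest other array, as a share of the group's range, exceeded Dixon's critical value, where chance gives about 1 in 20. Serpinb6b was one of them: knockout replicate 3 read 8.84 and the other 3 knockout arrays 8.60 to 8.64, so that the array apart is the one nearest to the wild type. Without knockout replicate 3 the log2 fold change of Serpinb6b was -0.55. Ahsg read 10.37 in wild-type replicate 4 and 10.53 to 10.54 in the others. Mylk4, which lies beside the chromosome 13 cluster, read 3.37 in wild-type replicate 2 and 3.74 to 3.78 in the others.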

How the results depend on the processing

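The count of genes past the threshold was 4626 and ran from 3717 with the replicate block to 5573 with an intensity trend and robust variances, and from 3858 to 4038 with 1 array left out. Deviations of same-numbered cultures correlated with r of 0.059, -0.002, 0.022 and 0.026, against -0.061 to 0.041 for other pairs across genotypes, and 5 of 8 arrays correlated best with their own number. None of the 4 exceeded 0.1, and by this choice the numbers were not taken as pairing the samples. The value of 0.059 was above every other pair, and whether the cultures were paired was not tested. Of the members, 4 were past the threshold in the deposited values and 3 with the replicate block, without wild-type replicate 3 and without knockout replicates 1 or 2, Serpinb6a being the one lost each time. Serpinb9b, Serpinb9 and Serpinb6b kept their side in all 17 alternatives, with ranges of -3.99 to -2.51, -0.88 to -0.73 and -0.55 to -0.46. The -2.51 came from averaging both Serpinb9b probe sets. Of the other clade B serpins 1 passed, 0 with median centring, and 2 with the intensity trend (Serpinb1b and Serpinb9f). It was also 0 without the dimmest 25% or 50% of probe sets, but these filters took out Serpinb9c itself. With 1 array left out the number ran from 0 to 1, at 0 without wild-type replicate 2 or 3 or knockout replicate 1 or 2. The single call was Serpinb1b without wild-type replicate 4 and Serpinb9f without knockout replicate 4. Proteases that fell numbered 7 with the intensity trend. Killing genes that rose numbered 1 after neighbour subtraction, and those that fell 3 with the block. Rising NF-kB genes numbered 2 after neighbour subtraction and without knockout replicate 1. The causes of these shifts were not tested. Signal near or below the array median limits Serpinb1a, Serpinb5, Serpinb2, the 17 other clade B serpins and the granzymes.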
